A study of Homo sapiens with 8 samples.

Results

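Gene expression at 24 h of exposure to 5 µM hexavalent chromium, Cr(VI), was compared with control in a human lymphoblastoid cell line, using 4 of the 8 RNA sequencing libraries of the series. The libraries were chosen by their treatment labels, 2 for the 24 h exposure and 2 for control. The labels describe the control as cells sampled before exposure, and both groups came from the same line, grown in the same medium and differing by label only in the exposure. The other 4 libraries, from 3 and 7 days after treatment, entered the estimate of the spread between replicates, a check of the replicate numbers and the alternative fits. Their expression is given below only as levels. No unexposed cells kept for 24 h were analysed here, so exposure and time in culture cannot be told apart. The labels call the replicates biological but do not say that they were separate cultures, so p-values measure only the spread between these libraries, which may be technical.

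Lymphoblastoid cells are B lymphocytes immortalised by Epstein-Barr virus, which keeps them dividing and drives NF-kB signalling, interferon-response genes and antigen presentation. Chromate resembles sulfate and enters cells through anion transporters. It is then reduced inside the cell to trivalent chromium, which binds DNA and forms adducts and crosslinks, while reactive intermediates oxidise other molecules. The responses usually studied after chromate are therefore the p53 damage response, crosslink repair, antioxidant and metal-binding genes, and arrest of DNA replication.

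Gene counts totalled 9587004 and 10434228 in 24 h replicates 1 and 2, and 10884838 and 9478459 in control replicates 1 and 2. Of 25 B cell markers, 23 reached 10 CPM, where CPM is the read count per 1000000 counts in genes, scaled between libraries, and their summed level was 4420 to 5520 CPM at 24 h and 4540 to 5270 CPM in control. None of 15 T and NK cell markers and none of 9 erythroid markers reached that level, and CD3D, CD3G and CD8A were at 0 in all 4 libraries, where a count of 0 allows up to 0.276 to 0.317 CPM (3 counts a library, counting error only). Of 14 myeloid markers 2 reached it, ITGAM and VCAN, and of 15 stromal or epithelial markers 1 did, ACTA2. Summed levels of these 2 lists were 55.0 to 74.5 CPM and 25.3 to 29.7 CPM at 24 h, against 59.5 to 64.4 CPM and 22.6 to 34.0 CPM in control. In bulk RNA, fewer cells of a type and less RNA per cell cannot be told apart.

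The 4 libraries fell into 2 pairs that crossed the replicate numbers. Over 8485 genes averaging at least 10 CPM, the median absolute log2 difference was 0.13 between 24 h replicate 2 and control replicate 1, and 0.135 between 24 h replicate 1 and control replicate 2. It was 0.245 between the 24 h replicates, 0.226 between the control replicates, and 0.28 and 0.209 between 24 h and control libraries numbered 1 and 2. Of the variation among the 4 libraries in log2 CPM, 74.8% lay between the crossed pairs and 16.5% between 24 h and control. The remaining 8.78% was the difference between the crossed pairs in their 24 h minus control values. The labels do not say that a 24 h library and a control library share a culture, so the crossed matching rests on these counts, which are the same counts that were then compared.

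Matched differences below are log2 CPM at 24 h minus control. The first takes 24 h replicate 2 and control replicate 1, and the second takes 24 h replicate 1 and control replicate 2. The mean of both is the same under either matching, so the matching sets which genes look alike in both differences and does not set the mean fold change. Values that depend on the matching are given as descriptions, with no p-value.

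Without matching, no gene was called different between 24 h and control. The edgeR quasi-likelihood test over 12536 genes called 0 (0.0%), with a smallest adjusted p of 1 after Benjamini-Hochberg adjustment, and 22 genes had an unadjusted p under 0.05. DESeq2 and limma-voom also called 0, with 14 and 23 genes at an unadjusted p under 0.05. An exact permutation test of 1 gene with 2 libraries against 2 cannot give a p below 0.333. The 22 genes are a far smaller share of the 12536 than 0.05, the share under that p in a calibrated test when no gene differs. The spread in the edgeR test includes that between the crossed pairs, which held 74.8% of the variation among the 4 libraries. A count of 0 therefore does not show that the groups are alike. No value below is a called change in the edgeR test. Fits that take the crossed matching as a block called 216 genes in the 4 libraries and 94 in the 8, but that matching was chosen from the same counts, so those calls are not used for the genes below.

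The 2 matched differences had a correlation of 0.31 over the 8485 genes and the same sign in 60.4% of them. Matched by replicate number instead, they had a correlation of -0.65 and the same sign in 28.1%. These are correlations across genes, which are not independent replicates, and the crossed pairs were chosen for their closeness. Agreement was higher in genes with more reads. The same sign occurred in 50.5% of genes under 2 CPM (correlation 0.05) and in 62.5% of genes of at least 100 CPM (correlation 0.43). Over all genes tested, 28.5% were higher at 24 h in both differences and 29.4% were lower in both, and among genes of at least 10 CPM these shares were 30.3% and 30.2%.

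**Figure D1:**
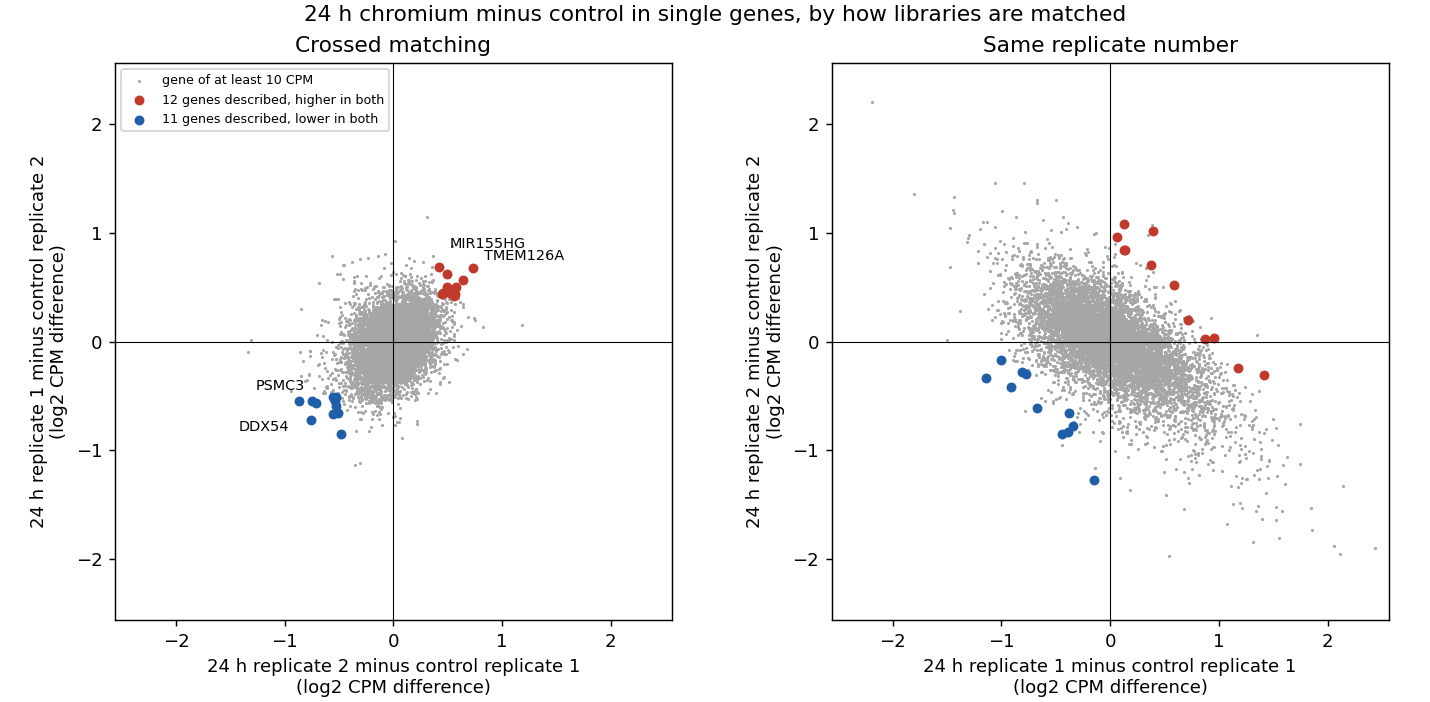
Each point is a gene of at least 10 CPM, with the log2 CPM difference, 24 h minus control, in a pair of libraries on each axis, for crossed matching (left) and matching by replicate number (right). The cloud runs upward with a correlation of 0.31 on the left and downward with -0.65 on the right; red and blue points are the 12 higher and 11 lower genes chosen from the left panel, so their places there are set by that choice.

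The matched differences followed the base composition of the transcripts. Over 8420 genes with a GENCODE transcript, Spearman's rho between GC content and the difference was -0.55 in the first and -0.24 in the second matched difference. In the bin (of 5 equal bins) with the lowest GC content (31.3% to 40%), 58.1% were higher in both differences and 6.71% were lower in both. In the bin with the highest GC content (55.2% to 69.3%), 10% were higher in both and 51.8% were lower in both. Transcript length followed the differences more weakly, with rho of 0.17 and 0.09. A smooth trend on GC content and length took up 28% of the variance of the first difference and 5.84% of that of the second. With that trend removed, the correlation between the matched differences was 0.22 and 57.9% of genes had the same sign. The share of reads counted under no feature was also higher at 24 h in both crossed pairs. It was 46.4% in 24 h replicate 2 against 44.4% in control replicate 1, and 51.5% in 24 h replicate 1 against 47.5% in control replicate 2. Between the libraries numbered 2 it was lower at 24 h, so the groups overlapped. The part of base composition and of this share in the results was not tested. Values with the trend removed are given below for the leading genes and lists.

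**Figure D2:**
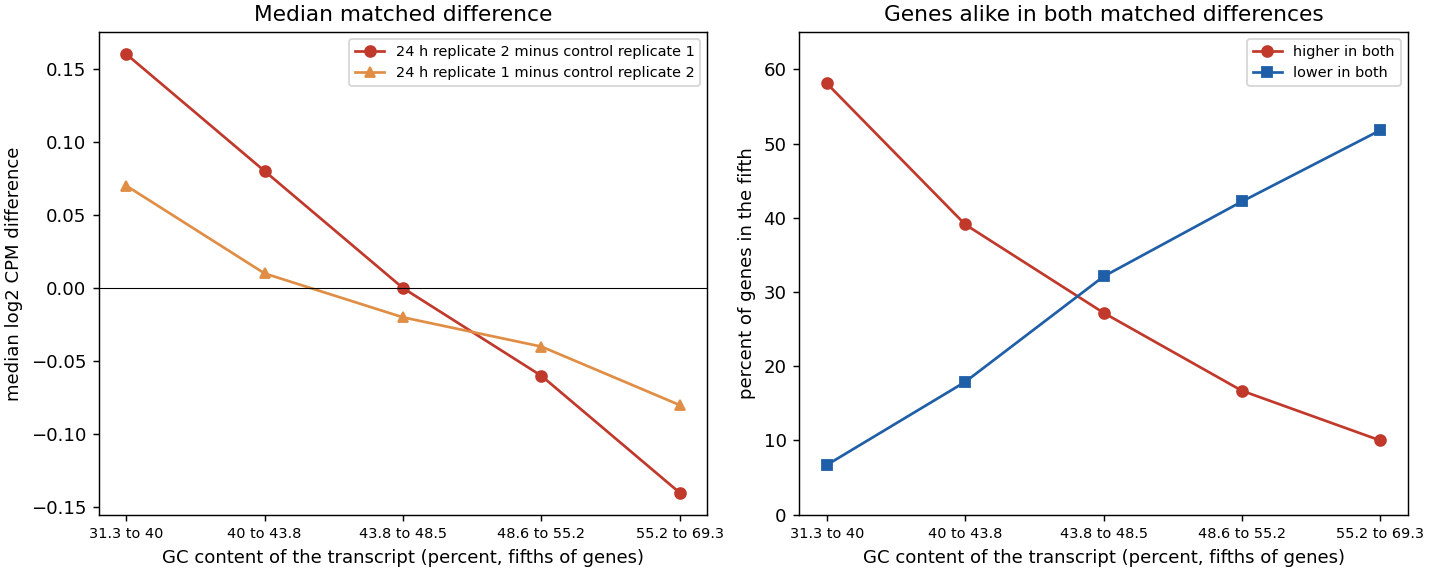
Genes of at least 10 CPM in 5 equal bins by GC content of the transcript, with the median matched difference in log2 CPM (left) and the percent of genes higher or lower at 24 h in both matched differences (right). Both medians descend from low to high GC content, by more in the first difference (0.16 to -0.14) than in the second (0.07 to -0.08).

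Few genes had large values in both differences. Of the 8485 genes, 4 (0.0471%) were higher at 24 h by more than 0.5 in both, namely TMEM126A, FAM102B, CRIPT and LOC100271836, and 10 (0.118%) were lower by more than 0.5 in both. With the GC and length trend removed, 5 were higher and 2 lower by more than 0.5 in both. By group levels alone, both 24 h libraries lay above both controls in 919 genes (10.8%) and below both in 983 genes (11.6%). Just outside the limit on the higher side were MAP9 and TMEM126B, each with a smaller difference of 0.49. Just outside on the lower side was TMEM11, with a smaller difference of -0.48. The 12 higher and 11 lower genes given next were taken in order of their smaller difference. Since the rule used these differences, their folds and unadjusted p-values are descriptions and do not test the genes chosen.

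The gene with the largest smaller difference was TMEM126A, whose product sits in the inner mitochondrial membrane and takes part in the assembly of respiratory complex I. It had 52.0 and 41.1 CPM in 24 h replicates 2 and 1, against 31.3 and 25.6 CPM in control replicates 1 and 2. Both 24 h libraries lay above both controls, and the mean fold change was 0.71 ± 0.25 on the log2 scale (SE, edgeR, 2 libraries a group; unadjusted p = 0.0234). The gene next to it on chromosome 11, TMEM126B, encodes another complex I assembly factor. TMEM126B had 32.6 and 35.1 CPM at 24 h, against 23.2 and 22.7 CPM in control. Its groups did not overlap either, with a mean log2 fold change of 0.56 ± 0.21 (edgeR, unadjusted p = 0.0279). Both stayed higher with the GC and length trend removed, at 0.62 and 0.66 for TMEM126A and at 0.30 and 0.51 for TMEM126B.

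The sequences around the starts of these neighbours are shown because both genes were higher in both matched differences. They come from RefSeq on GRCh38.p14, plus strand, at chr11:85647717-85648016 for TMEM126A and chr11:85628323-85628622 for TMEM126B, from 250 bases before to 50 bases after the annotated start. Capitals mark CCAAT, the motif bound by NF-Y, and AAGATGG, the core of the motif bound by YY1, each searched on both strands; the 2 motifs do not overlap in these windows.
TMEM126A: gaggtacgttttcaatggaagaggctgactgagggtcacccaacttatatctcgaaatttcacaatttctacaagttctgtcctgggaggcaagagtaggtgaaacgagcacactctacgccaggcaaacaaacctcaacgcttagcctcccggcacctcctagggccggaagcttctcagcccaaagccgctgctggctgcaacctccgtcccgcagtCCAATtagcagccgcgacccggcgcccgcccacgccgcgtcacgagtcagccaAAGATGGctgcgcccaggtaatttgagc
TMEM126B: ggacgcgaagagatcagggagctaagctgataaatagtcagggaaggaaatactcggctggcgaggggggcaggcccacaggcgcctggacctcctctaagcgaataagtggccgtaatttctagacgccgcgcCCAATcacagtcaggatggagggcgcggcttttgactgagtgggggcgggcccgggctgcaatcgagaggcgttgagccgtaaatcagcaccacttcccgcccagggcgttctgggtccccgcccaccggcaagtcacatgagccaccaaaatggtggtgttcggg
CCAAT occurred 1 time in each window, and AAGATGG occurred 1 time in the TMEM126A window and 0 times in the TMEM126B window. Of 27305 RefSeq windows of the same length, 35.7% held CCAAT and 6.06% held AAGATGG on either strand. A match describes the letters only.

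MIR155HG, the host transcript of miR-155, had 285 and 568 CPM in 24 h replicates 2 and 1, against 212 and 353 CPM in control replicates 1 and 2. It was higher in both matched differences (0.42 and 0.69), but the lower 24 h library lay below the higher control, so the groups overlapped. The mean log2 fold change was 0.59 ± 0.59 (SE, edgeR, unadjusted p = 0.343), and it was 0.01 without 24 h replicate 1 and 1.01 without 24 h replicate 2. It was 0.27 without control replicate 1 and 1.01 without control replicate 2. MIR155HG is induced by B cell receptor and NF-kB signals, and miR-155 is abundant in virus-transformed B cells. The mature sequences made from this transcript (RefSeq, GRCh38.p14, chr21:25573983-25574006 and chr21:25574022-25574043, plus strand) are shown with the seed, bases 2 to 8, in capitals. Their seeds differ, and the libraries measured the polyadenylated host transcript, not the mature miRNAs.
hsa-miR-155-5p: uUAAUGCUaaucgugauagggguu
hsa-miR-155-3p: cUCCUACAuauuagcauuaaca

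The other higher genes had a range of roles. FAM102B had 72.0 and 50.7 CPM at 24 h, against 46.1 and 34.0 CPM in control. CRIPT, a small cysteine-rich protein that binds PDZ domains, had 21.9 and 19.1 CPM at 24 h, against 14.6 and 13.4 CPM in control. Both had groups that did not overlap, and their matched differences with the trend removed were 0.52 and 0.53 for FAM102B and 0.42 and 0.43 for CRIPT. MAP9 (a microtubule-associated protein of the mitotic spindle), SLC35A3 (which carries UDP-N-acetylglucosamine into the Golgi), GEMIN2 (part of the SMN complex that assembles spliceosomal snRNPs) and TMEM14A had smaller differences from 0.42 to 0.49. C6orf170 had 27.7 and 45.0 CPM at 24 h, against 19.8 and 32.7 CPM in control, with overlapping groups. In all, 10 of the 12 higher genes had groups that did not overlap, the exceptions being MIR155HG and C6orf170. Over all genes of at least 10 CPM, 10.8% had both 24 h libraries above both controls. The 12 genes were chosen by differences in the same 4 libraries, so their lack of overlap is no added support.

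RPS27L, a ribosomal protein relative that p53 induces and that feeds back on MDM2, had 18.9 and 13.2 CPM at 24 h, against 12.7 and 9.62 CPM in control. PIM3, a survival kinase, had 17.8 and 23.8 CPM at 24 h, against 12.9 and 17.5 CPM in control. Both genes had groups that did not overlap. PIM3 stood apart in composition, with a GC content of 67.1%, and its matched differences were larger with the trend removed, at 0.64 and 0.51 in place of 0.45 and 0.44. The range over the 12 genes with the trend removed was 0.26 to 0.62 for the smaller difference. LOC100271836, which RefSeq now names SMG1P3, a transcribed pseudogene in a group of near-identical SMG1 copies, had 144 and 255 CPM at 24 h, against 99.4 and 139 CPM in control. Reads of such copies can be split between them, so its value is uncertain, and it was named after its values were seen.

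On the lower side, the largest smaller difference was that of DDX54, an RNA helicase of the nucleolus. It had 21.1 and 16.2 CPM in 24 h replicates 2 and 1, against 35.8 and 26.8 CPM in control replicates 1 and 2. The groups did not overlap, and the mean log2 fold change was -0.75 ± 0.53 (SE, edgeR, unadjusted p = 0.195). DDX54 also varied in the later libraries that share the spread, at 62.1 and 23.9 CPM in replicates 1 and 2 at 3 days. PSMC3, an ATPase subunit of the proteasome cap, had 66.9 and 55.3 CPM at 24 h, against 97.3 and 81.2 CPM in control. Its matched differences were alike, -0.54 and -0.55, and were -0.42 and -0.48 with the trend removed.

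The remaining lower genes were spread over the mitochondria, membrane traffic and the nucleus. DNAJC4, a J-domain co-chaperone, had 16.8 and 18.9 CPM at 24 h, against 24.9 and 30.1 CPM in control, with a mean log2 fold change of -0.62 ± 0.27 (SE, edgeR, unadjusted p = 0.0481). ACSF3, the mitochondrial malonyl-CoA synthetase, had 7.25 and 12.1 CPM at 24 h, against 13.4 and 17.7 CPM in control. VAMP8, a vesicle SNARE, had 13.0 and 14.9 CPM at 24 h, against 18.9 and 22.4 CPM in control. SSNA1 (a microtubule-binding protein of centrosomes and cilia), BRMS1 (part of the SIN3 histone deacetylase complex), SLC39A3 (a zinc importer), TMEM11 (an inner mitochondrial membrane protein) and RNASE6 (a secreted ribonuclease) had smaller differences from -0.57 to -0.48. All 11 lower genes, FAHD2B included, had groups that did not overlap, and the smaller difference with the trend removed was 0.34 to 0.61 in size. Over all genes of at least 10 CPM, 11.6% had both 24 h libraries below both controls. The choice of these 11 by their differences favoured genes without overlap. GC content was 52.8% to 64.2% in 10 of them and 43.5% in RNASE6.

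FAHD2B and FAHD2A are near-identical copies, so the split of reads between them is uncertain. FAHD2B had 13.9 and 17.2 CPM at 24 h, against 23.4 and 25.2 CPM in control, and FAHD2A had 10.7 and 15.2 CPM at 24 h, against 20.7 and 20.9 CPM in control. Both were lower in both matched differences, and neither had overlapping groups. They were among the 10 genes with the smallest unadjusted p in the edgeR test (0.0288 and 0.0276) among genes whose higher group averaged 2 CPM or more, as were TMEM126A and TMEM126B. The other 6 were scarce, all under 10 CPM in each of the 4 libraries. TAS2R4, a bitter taste receptor, had an unadjusted p of 0.0151, with 1.39 and 2.71 CPM at 24 h, against 0.351 and 0.614 CPM in control. TAS2R4, C15orf61 and FAM161B met that floor only in their higher group. C15orf61, SNORA32 and CBWD6 were also higher in both differences and FAM161B and KCTD17 lower in both, and CBWD6 has close copies.

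**Figure D3:**
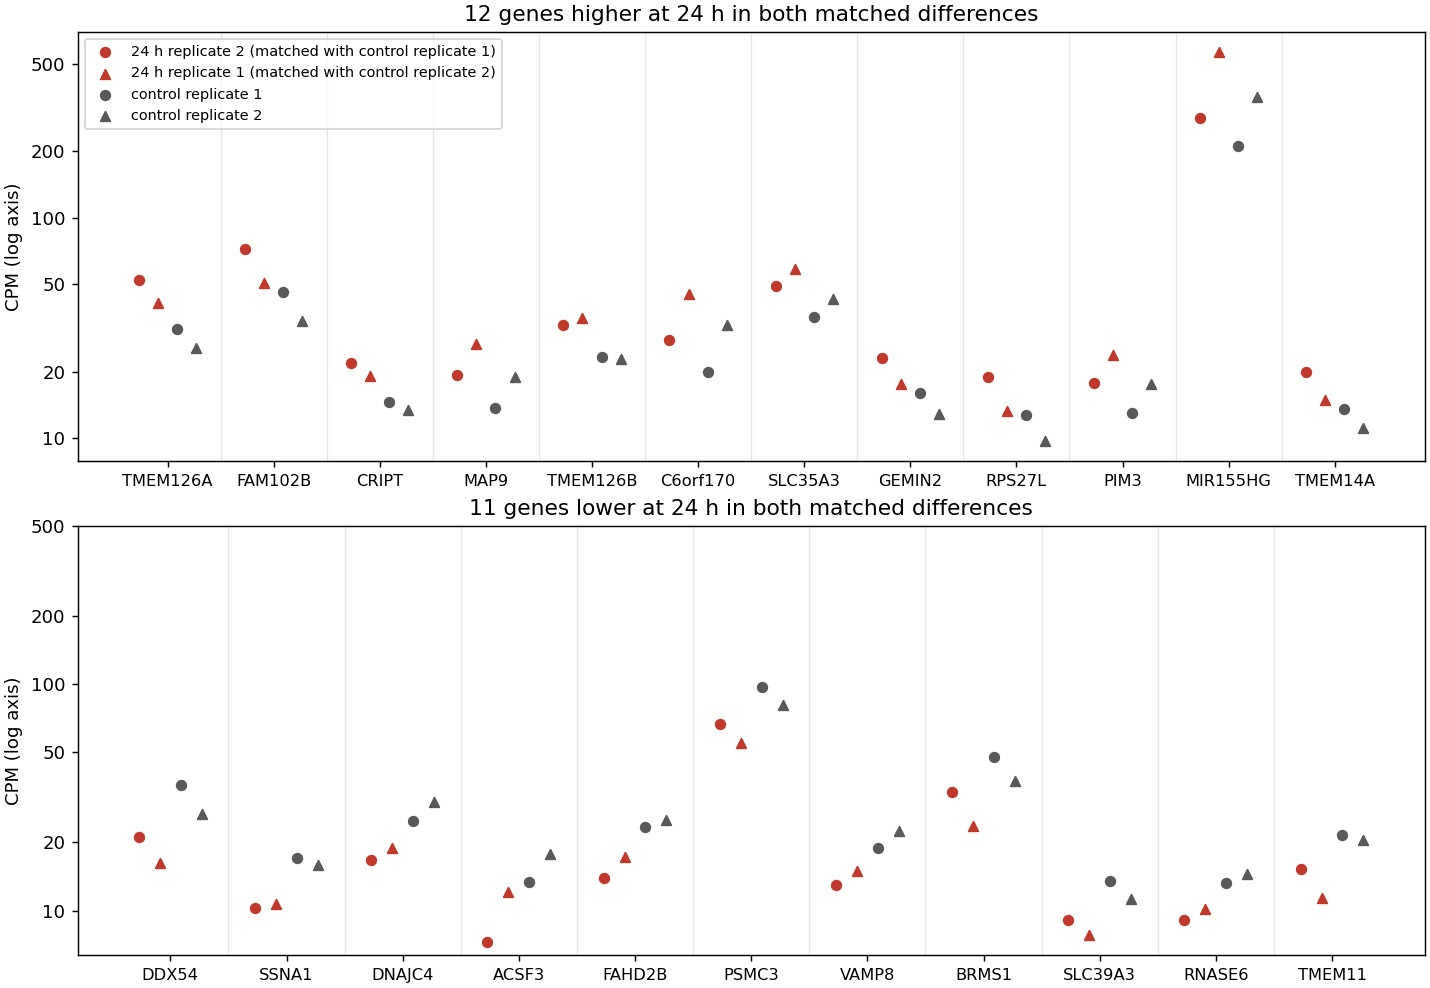
CPM on a log axis in 24 h replicates 2 and 1 (red) and control replicates 1 and 2 (grey) for the 12 higher and 11 lower genes, with circles for the first matched pair and triangles for the second. In each gene the red circle and the grey circle, and the red triangle and the grey triangle, differ in the same direction, and MIR155HG and C6orf170 are the genes whose groups overlap.

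Genes of at least 100 CPM rest on more reads, and the most alike of these had smaller differences of 0.34 to 0.42 on the higher side and 0.35 to 0.44 on the lower. Beside MIR155HG, the higher ones were IL6ST (gp130, the shared receptor chain of the interleukin-6 family), ZC3H12C (a CCCH zinc finger ribonuclease), PCNP, ABCA5 (a lipid transporter) and TAF1D (a subunit of the RNA polymerase I factor SL1). IL6ST had 145 and 271 CPM in 24 h replicates 2 and 1, against 109 and 202 CPM in control replicates 1 and 2, so the groups overlapped although both matched differences were alike (0.41 and 0.42). PCNP had 201 and 239 CPM at 24 h, against 157 and 174 CPM in control, with no overlap. All 6 had GC contents of 33.1% to 42.3%, and with the trend removed the smaller difference ranged from 0.11 for ABCA5 to 0.32 for TAF1D.

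The abundant lower genes included HLA-DMA, which loads peptides on MHC class II, with 268 and 255 CPM at 24 h, against 366 and 346 CPM in control. AURKA, the mitotic kinase of centrosome maturation, had 127 and 87.9 CPM at 24 h, against 171 and 121 CPM in control. NDUFA12, a complex I subunit, had 108 and 78.0 CPM at 24 h, against 145 and 121 CPM in control. HLA-DMA and NDUFA12 had groups that did not overlap, and AURKA had groups that did. AURKA and NDUFA12 have GC contents close to that of the median gene (46.6% and 45.7%, against 46.0%), and their matched differences were nearly the same with the trend removed, at -0.42 and -0.43 for AURKA and -0.43 and -0.60 for NDUFA12. CFL1 (cofilin) and CORO1A (coronin), which turn over actin filaments, and the immediate early gene IER2 completed the set. CORO1A had 523 and 383 CPM at 24 h, against 667 and 582 CPM in control, with no overlap.

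The gene lists that follow were chosen with earlier results of these data known, and each is described by how many of its tested members were higher or lower in both matched differences, beside 28.5% and 29.4% of all genes. Over all genes the median difference was 0 in the first and -0.01 in the second. With the GC and length trend removed, 29.1% of genes were higher in both and 27.0% lower in both. No list had a member called by the edgeR test.

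Of the metal response list, 6 of 16 members were tested, and 1 was higher and 2 were lower in both. Metallothioneins bind excess metal and are induced by zinc and cadmium. The metallothionein genes themselves were scarce, with MT2A at 4.09 and 3.42 CPM at 24 h, against 3.07 and 3.69 CPM in control. MT1X had 2.60 and 1.71 CPM at 24 h, against 1.93 and 1.23 CPM in control. SLC30A1, the zinc exporter induced by the same factor, had 11.2 and 8.04 CPM at 24 h, against 13.4 and 10.4 CPM in control, with overlapping groups. Among 17 sulfate, phosphate and iron transporters, which include carriers that admit chromate, 6 were higher and 4 lower in both.

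NRF2 switches on antioxidant genes when its inhibitor KEAP1 is oxidised. Of 25 tested targets, 4 were higher and 10 were lower in both, with medians of -0.12 and -0.02. With the GC and length trend removed, 6 were higher and 7 lower in both. HMOX1, heme oxygenase, had 4.09 and 3.02 CPM at 24 h, against 2.90 and 2.15 CPM in control. NQO1, a quinone reductase, had 12.6 and 12 CPM at 24 h, against 15.4 and 12.5 CPM in control. SQSTM1, the autophagy receptor that binds KEAP1, had 131 and 194 CPM at 24 h, against 174 and 235 CPM in control, and TALDO1 of the pentose phosphate path had 113 and 112 CPM at 24 h, against 157 and 128 CPM in control. SQSTM1, TALDO1 and NQO1 were lower in both differences and HMOX1 was higher in both. Of these 4 genes HMOX1 and TALDO1 had groups that did not overlap. MT2A, MT1X, HMOX1 and NQO1 were named after their values were seen.

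SLC7A11, which imports cystine for glutathione and is a target of both NRF2 and ATF4, had 41.2 and 143 CPM in 24 h replicates 2 and 1, against 32.2 and 104 CPM in control replicates 1 and 2. It was higher in both matched differences (0.36 and 0.46), but the libraries of the first pair lay far below those of the second, whatever the treatment. GSTO1, a glutathione transferase that also reduces arsenic compounds, had 98.6 and 102 CPM at 24 h, against 81.4 and 61.7 CPM in control, with no overlap and a mean log2 fold change of 0.49 ± 0.21 (SE, edgeR, unadjusted p = 0.0515). PRDX5, a peroxiredoxin, had 19.9 and 19.3 CPM at 24 h, against 27.4 and 28.8 CPM in control, also with no overlap. TRMT112, the next gene on chromosome 11, was lower as well, at 21.6 and 25.5 CPM at 24 h, against 30 and 35.4 CPM in control (named after its values were seen). GPX4, which removes lipid peroxides, had 180 and 156 CPM at 24 h, against 209 and 213 CPM in control. Of 36 glutathione, peroxiredoxin and superoxide enzymes, 8 were higher and 15 lower in both, and 9 each way with the trend removed.

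The p53 targets were divided, with 13 of 41 higher and 9 lower in both, and the same counts with the trend removed. CDKN1A, the p21 arrest gene, had 103 and 80.2 CPM in 24 h replicates 2 and 1, against 103 and 79.2 CPM in control replicates 1 and 2. MDM2, which degrades p53, had 1864 and 1205 CPM at 24 h, against 1556 and 1170 CPM in control, a difference that was 0.26 in the first pair and 0.04 in the second. RRM2B, the ribonucleotide reductase subunit that p53 induces for repair, had 166 and 197 CPM at 24 h, against 123 and 157 CPM in control, and its groups did not overlap. ZMAT3 had 608 and 888 CPM at 24 h, against 530 and 721 CPM in control, and BAX, a death effector, had 30.8 and 22.1 CPM at 24 h, against 35.6 and 38.2 CPM in control. BAX was lower in both differences and RRM2B and ZMAT3 were higher in both. CDKN1A was named after its values were seen.

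Repair genes gave counts on both sides, near even in homologous recombination and crosslink repair. Of 47 genes of homologous recombination and crosslink repair, 12 were higher and 10 lower in both. FANCM, the translocase that finds crosslinks, had 63.4 and 58.5 CPM at 24 h, against 49.3 and 47.9 CPM in control, with no overlap and trend-removed differences of 0.20 and 0.21. FANCB had 21.7 and 21.5 CPM at 24 h, against 18.4 and 17.7 CPM in control, with no overlap. FANCD2, whose ubiquitination marks crosslinks, had 195 and 164 CPM at 24 h, against 180 and 151 CPM in control, with overlap. H2AFX, the histone phosphorylated at breaks, had 133 and 69.7 CPM at 24 h, against 107 and 61 CPM in control, so that the spread between pairs exceeded the differences. In nucleotide excision repair 4 of 23 genes were higher and 12 lower in both, among them ERCC1 (16.3 and 18.7 CPM at 24 h, against 14.1 and 14.4 CPM in control) on the higher side and CETN2 (13.1 and 11.5 CPM, against 16.0 and 14.5 CPM) on the lower. With the trend removed, 5 of this list were higher and 13 lower in both. Of its 22 genes at 10 CPM, 3 had both 24 h libraries above both controls and 5 had both below. The shares of all genes at that level were 10.8% and 11.6%. Base excision repair and end joining had 4 of 27 higher and 11 lower, and 6 and 10 with the trend removed. Of its 21 genes at 10 CPM, 1 had both 24 h libraries above both controls and 2 had both below. Mismatch repair had 1 of 12 higher and 3 lower, and 2 and 3 with the trend removed. All 12 reached 10 CPM, and 1 had both 24 h libraries above both controls and 0 had both below.

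Replication genes were lower in both differences in 24 of 45 cases and higher in 7, counts that rest on the crossed matching. All 45 reached 10 CPM, and both 24 h libraries lay below both controls in 1 and above both in 2. The shares of all genes at that level were 11.6% and 10.8%. MCM7 and MCM2, subunits of the replicative helicase, had 236 and 162 CPM and 175 and 126 CPM at 24 h, against 289 and 223 CPM and 207 and 170 CPM in control. In MCM7 the groups overlapped, and so they did in MCM2. With the trend removed, 17 were lower and 11 higher in both. The mitosis list had a median of 0.06 in the first difference and -0.23 in the second, and 13 of 36 genes lower and 5 higher in both. With the trend removed, 13 were lower and 4 higher. All 36 reached 10 CPM, and both 24 h libraries lay below both controls in 4 and above both in 2, beside the same shares of all genes. MKI67, the proliferation antigen, had 402 and 302 CPM at 24 h, against 410 and 422 CPM in control. AURKB, which corrects chromosome attachment, had 13.7 and 13.9 CPM at 24 h, against 18 and 18.6 CPM in control. Both genes are among the 4 below both controls. Of 16 replication-dependent histone genes tested, 8 were lower and 3 higher, but only 2 reached 10 CPM. Most transcripts of this kind lack a poly-A tail, and the libraries were poly-A selected; the part of that in these levels was not tested. HIST1H2BK had 56.7 and 57.3 CPM at 24 h, against 66.1 and 76.3 CPM in control.

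Among translation genes, tRNA synthetases were mostly lower. Of 40 aminoacyl-tRNA synthetases, which join amino acids to their tRNAs, 24 were lower in both differences and 2 were higher, with medians of -0.08 and -0.10. With the trend removed, 20 were lower and 3 higher. In 7 of the 37 that reached 10 CPM both 24 h libraries lay below both controls, and in none above, beside 11.6% and 10.8% of all genes at that level. FARSA, a subunit of phenylalanyl-tRNA synthetase, had 15.0 and 14.1 CPM at 24 h, against 19.6 and 18.2 CPM in control, with no overlap. Its partner FARSB had 170 and 117 CPM at 24 h, against 193 and 146 CPM in control, with overlap. HARS, for histidine, had 73.7 and 49.7 CPM at 24 h, against 83.5 and 70.6 CPM in control, also with overlap. ATF4 targets, a list on amino acid supply, had 8 of 29 higher and 5 lower in both, with medians of -0.09 and 0.16. ATF3, an ATF4 target, had 17.7 and 26.4 CPM at 24 h, against 14.5 and 18.3 CPM in control.

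Cytosolic ribosomal protein genes were on both sides, with 26 of 77 higher and 21 lower in both, and 35 higher and 16 lower with the trend removed. RPL7 had 1116 and 880 CPM at 24 h, against 841 and 768 CPM in control, and RPS27 had 68.7 and 64.4 CPM at 24 h, against 52.9 and 51.8 CPM in control. RPLP1, of the ribosomal stalk, had 246 and 284 CPM at 24 h, against 443 and 354 CPM in control, and RPL3 had 680 and 531 CPM at 24 h, against 842 and 668 CPM in control. The groups of RPL7, RPS27 and RPLP1 did not overlap, and those of RPL3 did. Many ribosomal protein genes have processed pseudogenes, so their counts are uncertain. Ribosome biogenesis genes were lower in both in 22 of 44 cases and higher in 12, counts that rest on the crossed matching. With the trend removed, 20 were lower and 13 higher in both. Of the 41 that reached 10 CPM, 3 had both 24 h libraries below both controls and 4 had both above. The shares of all genes at that level were 11.6% and 10.8%. NCL (nucleolin), a lower member, had 664 and 493 CPM at 24 h, against 778 and 731 CPM in control, with no overlap. Small nucleolar RNA host genes had 2 of 16 higher and 5 lower in both.

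Mitochondrial lists were mixed. Mitochondrial ribosomal proteins had 12 of 76 higher and 26 lower in both, complex I subunits and assembly factors 15 of 52 higher and 16 lower, and complexes II to V 12 of 39 higher and 16 lower. Members of 1 complex lay on both sides. COX7A2 of complex IV had 49.5 and 47.6 CPM at 24 h, against 37.7 and 39.3 CPM in control, and COX6B1 of the same complex had 37.5 and 34.3 CPM at 24 h, against 53.5 and 42.5 CPM in control. Neither gene had overlapping groups. ATP5L, an ATP synthase subunit, had 59.1 and 44.6 CPM at 24 h, against 73.9 and 56.5 CPM in control, with overlap.

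Protein quality control had no common direction. Of 36 proteasome genes 7 were higher and 14 lower in both. PSMC5, another ATPase of the cap, had 48.1 and 32.2 CPM at 24 h, against 59.4 and 52.8 CPM in control, while PSMA1, of the core, had 464 and 435 CPM at 24 h, against 391 and 370 CPM in control. Both had groups that did not overlap. Cytosolic chaperones had 7 of 24 higher and 5 lower, with HSF2, a heat shock factor, at 55.0 and 66.2 CPM at 24 h, against 46.7 and 48.5 CPM in control. AHSA1, a co-chaperone of HSP90, had 50 and 40.8 CPM at 24 h, against 68.3 and 47.1 CPM in control. Endoplasmic reticulum chaperones had 6 of 23 higher and 13 lower in both, or 5 and 7 with the trend removed. HSPA5, the sensor chaperone BiP, had 1219 and 565 CPM at 24 h, against 1220 and 693 CPM in control, where the pairs stood further apart than the treatments. Autophagy and lysosome genes had 7 of 37 higher and 13 lower.

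Antigen presentation and interferon-response genes were more often lower in both differences than higher. Of 28 MHC genes 14 were lower and 2 higher in both, although with the trend removed 10 were lower and 8 higher. Of the 27 that reached 10 CPM, 5 had both 24 h libraries below both controls and 0 had both above. The shares of all genes at that level were 11.6% and 10.8%. HLA-DRA, the class II alpha chain, had 2791 and 2787 CPM at 24 h, against 3143 and 3099 CPM in control, and HLA-C had 356 and 413 CPM at 24 h, against 450 and 479 CPM in control. B2M, the light chain of class I, had 5883 and 7339 CPM at 24 h, against 6743 and 7925 CPM in control. HLA-DRA and HLA-C had groups that did not overlap, and B2M had groups that did. HLA genes differ between people from the reference and resemble each other, so their counts are uncertain.

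Of 45 interferon-stimulated genes 18 were lower and 6 higher in both, and 21 and 12 with the trend removed. These counts rest on the crossed matching. Of the 43 that reached 10 CPM, only 3 had both 24 h libraries below both controls and 0 had both above. The shares of all genes at that level were 11.6% and 10.8%. MX1, an antiviral GTPase, had 808 and 909 CPM at 24 h, against 1028 and 1206 CPM in control, with no overlap and a mean log2 fold change of -0.38 ± 0.22 (SE, edgeR, unadjusted p = 0.119). ISG20, an exonuclease, had 40.7 and 56.8 CPM at 24 h, against 51.0 and 70.2 CPM in control, with overlap. The NF-kB list had 9 of 36 higher and 9 lower in both, and 12 and 7 with the trend removed. TNFAIP3, the inhibitor A20, had 669 and 815 CPM at 24 h, against 603 and 679 CPM in control, and BIRC3, an inhibitor of apoptosis, had 643 and 987 CPM at 24 h, against 526 and 823 CPM in control. Both overlapped between groups.

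B cell activation and surface genes had 8 of 39 higher and 7 lower in both. CD58, the ligand of CD2, had 148 and 152 CPM at 24 h, against 108 and 125 CPM in control, with no overlap. MS4A1, which encodes CD20, and IRF4, a regulator of B cell differentiation, differed by 0.11 or less in size in both pairs. Immediate early and stress factors had 8 of 30 higher and 5 lower, with a median of -0.11 in the first difference and 0.20 in the second. KLF10 had 227 and 249 CPM at 24 h, against 185 and 207 CPM in control, with no overlap, and IER2 had 59.0 and 118 CPM at 24 h, against 104 and 152 CPM in control, with overlap. Apoptosis regulators had 11 of 33 higher and 8 lower in both.

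Before the trend was removed, the list most often higher was that of C2H2 zinc finger genes, DNA-binding repressors of which many silence transposons. Of these, 33 of 69 were higher and 8 lower in both, with a median of 0.09 in each difference. Of the 52 members that reached 10 CPM, 15 had both 24 h libraries above both controls and 2 had both below, beside 10.8% and 11.6% of all genes at that level. The members had a median GC content of 41.3%, and with the trend removed 24 were higher and 14 lower in both. Other lists then had larger shares higher in both. Among them were cytosolic ribosomal proteins (35 of 77, with 16 lower) and immediate early and stress factors (14 of 30, with 6 lower). ZNF91 had 43.8 and 65 CPM at 24 h, against 34.6 and 47.8 CPM in control, with overlap. ZNF101 went the other way, with 34.9 and 28.2 CPM at 24 h, against 44.0 and 36.7 CPM in control, and its groups did not overlap. These genes share sequence, so some of their counts are uncertain. Of the remaining lists, splicing factors had 12 of 45 higher and 15 lower in both, chromatin modifiers 8 of 47 and 13, hypoxia and glycolysis genes 8 of 37 and 8, and cholesterol and fatty acid synthesis 8 of 32 and 10. HNRNPA1, an abundant splicing regulator with many pseudogenes, had 115 and 107 CPM at 24 h, against 91.0 and 69.8 CPM in control. LDHA, which makes lactate, had 1567 and 1641 CPM at 24 h, against 1893 and 1825 CPM in control. Neither gene had overlapping groups.

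**Figure D4:**
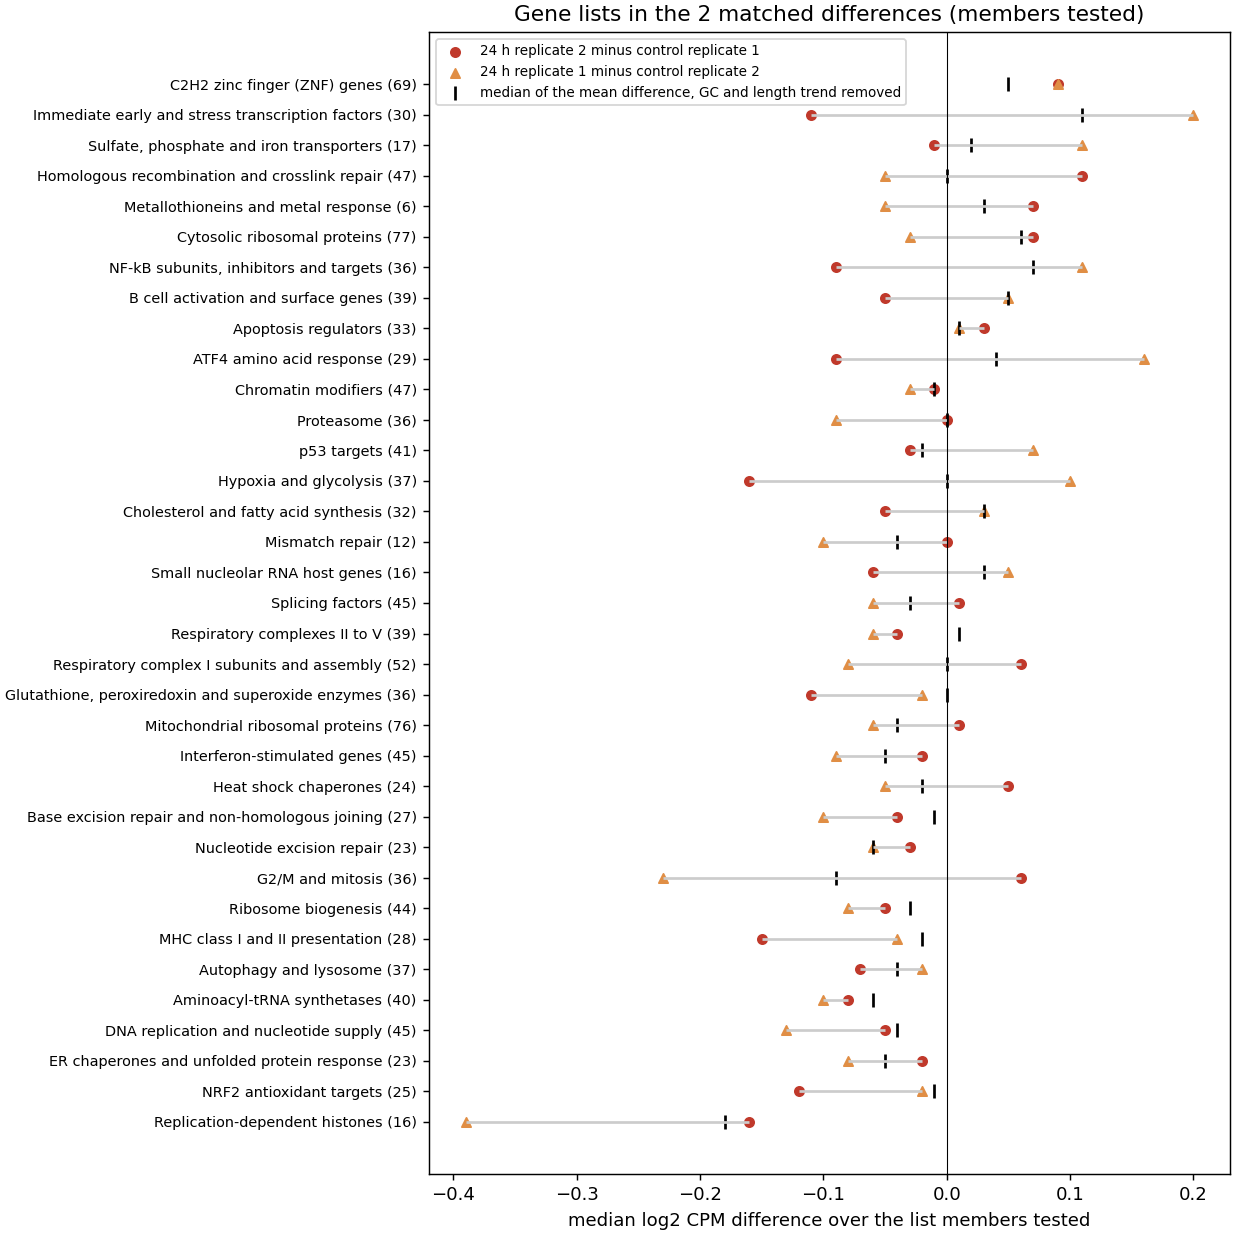
Median log2 CPM difference, 24 h minus control, over the tested members of each of 35 gene lists (number of members in brackets) in the first (circles) and second (triangles) matched difference, with ticks for the median of the mean difference after the GC and length trend was removed. The zinc finger list lies at 0.09 in both differences and the tRNA synthetases at -0.08 and -0.10, while lists such as G2/M and mitosis (0.06 and -0.23) lie on opposite sides of 0.

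Some genes were chosen because they differed most between the crossed pairs. ASB2, part of a ubiquitin ligase, had 79.8 and 17.5 CPM in 24 h replicates 2 and 1, against 80.6 and 17.2 CPM in control replicates 1 and 2. CHL1, a neural adhesion molecule, ran the other way between the pairs, with 59.6 and 256 CPM at 24 h, against 58.7 and 231 CPM in control. GLDC, of the glycine cleavage system, had 50.5 and 18.8 CPM at 24 h, against 51.1 and 20 CPM in control, and EGR3, an immediate early factor, had 12.6 and 62.8 CPM at 24 h, against 11.4 and 47.3 CPM in control. The matched differences were 0.02 or less in size for ASB2, and 0.13 and 0.41 for EGR3. Only 3 of the 8485 genes differed by more than 0.5 in opposite directions in the matched differences, CKB, CTH and RFXANK, which were named after their values were seen. CTH, which makes cysteine, had 9.11 and 38.3 CPM at 24 h, against 14.8 and 26.3 CPM in control.

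At the later times the same genes took different courses. TMEM126A had 48.4 and 41.0 CPM in replicates 1 and 2 at 3 days and 39.9 and 29.5 CPM at 7 days, so that the 3 day libraries lay above both controls and the lower 7 day library lay below the higher control. MIR155HG had 58.6 and 167 CPM at 3 days and 61.3 and 142 CPM at 7 days, all below both controls. DDX54 had 62.1 and 23.9 CPM at 3 days and 59.3 and 24.0 CPM at 7 days, on both sides of the controls. HLA-DMA had 299 and 220 CPM at 3 days and 304 and 218 CPM at 7 days, all below both controls as at 24 h. AURKA had 155 and 171 CPM at 3 days and 147 and 142 CPM at 7 days, between the control levels. MX1 had 783 and 778 CPM at 3 days and 780 and 892 CPM at 7 days, all below both controls. The later comparisons use the same control libraries, so these values are given side by side only.

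**Figure D5:**
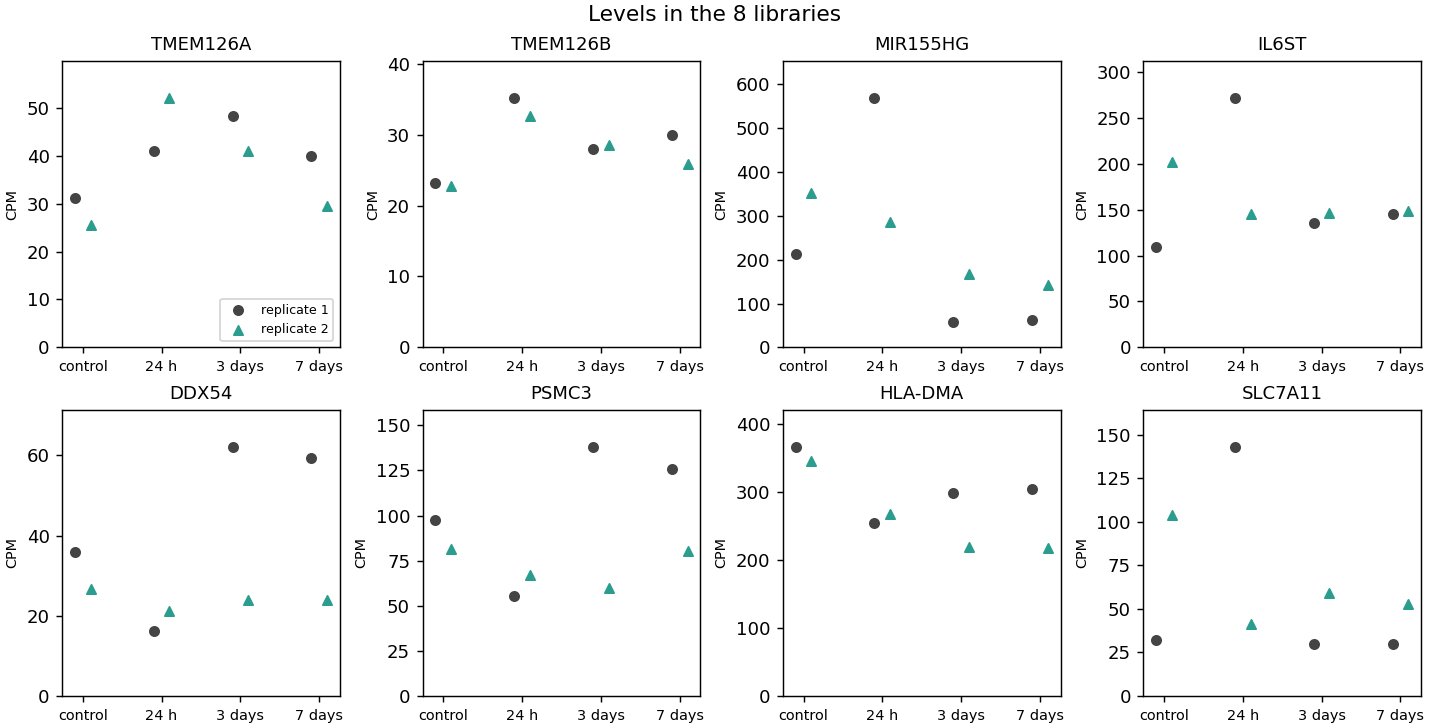
CPM of 8 genes in control, 24 h, 3 day and 7 day libraries, with circles for replicate 1 and triangles for replicate 2. In IL6ST and SLC7A11 the higher library carries number 2 in control and number 1 at 24 h, while TMEM126A and HLA-DMA have both 24 h libraries on one side of both controls, above in TMEM126A and below in HLA-DMA.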

How the data were processed

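RNA sequencing was done on poly-A RNA of 8 libraries, 2 a group, per the labels. For each library the authors deposited a table of raw read counts (whole numbers) by gene symbol. Per the submitters' processing notes, Trim Galore, Bowtie2, SAMtools, R 3.2.3 and DESeq2 1.8.1 were used with GRCh37 and hg19. The sources used here do not name the counting tool, its strand setting or the annotation, so reads of overlapping or antisense genes cannot be told apart. Entries that name no gene held 50.9% to 57.5% of reads in the 4 libraries compared and entered neither the library sizes nor the tests. With 9478459 to 10884838 counts a library, counting error is larger relative to the level in scarcer genes.

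Counts were filtered with filterByExpr (minimum count 10, minimum total 15), leaving 12536 of 23710 genes, scaled by TMM and tested with the quasi-likelihood test of edgeR 4.0.16 in R 4.3.3 over all 8 libraries, with group as the only term and a threshold of 0.05 on adjusted p. CPM used TMM-scaled library sizes, and log2 CPM a prior count of 2. The code was tested on simulated data. DESeq2 1.42.0 and limma-voom (limma 3.58.1) were alternatives, beside other scalings, filters and prior counts, level floors of 2 and 30 CPM, blocks, and each library left out. GC content and length came from GENCODE transcripts on another build, by symbol, and the trend was fitted with mgcv 1.9.3; this alternative was chosen after seeing the data.

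Replicate numbers did not pair the 24 h and control libraries. Deviations of same-numbered libraries correlated at -0.794 between 24 h and control, and at -0.406 and -0.386 between 24 h and the 3 and 7 day groups. They correlated at 0.413 and 0.4 between those groups and control, and at 0.919 between 3 and 7 days. The crossed matching follows from that value, and it, the 35 gene lists and the 5 marker lists were chosen with earlier results of these data known.

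Genes were named by a rule: same sign in both matched differences, at least 10 CPM and no clone or LOC symbol. Taken were the 12 higher and 12 lower with the largest smaller difference (1 of the lower is not reported here), 6 each way at 100 CPM or more, up to 3 a list by difference and up to 3 by level, the 10 smallest p among genes of at least 2 CPM in the higher group, and 4 each way that separated the pairs. The sign was not required of the last set, nor 10 CPM of the genes with the smallest p. Other exceptions are stated. Promoter and miRNA sequences are from RefSeq on GRCh38.p14, and 8440 of the 8485 symbols matched RefSeq.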

Additional observations from a re-analysis of the deposited data

How the results depend on the processing

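The count of 0 genes called was unchanged under RLE and upper-quartile scaling, no filter, a stricter filter, only the control and 24 h libraries, limma-voom, DESeq2, the same-number replicate block and each of the 8 libraries left out. With the crossed replicate block it was 216 (93 higher, 123 lower) in 4 libraries and 94 (35 higher, 59 lower) in 8 libraries; that pairing was chosen from the same counts, so these calls are not independent of it. With the block of the same replicate numbers 24 genes had an unadjusted p under 0.05, and the numbers did not pair the 24 h and control libraries. Matched by the same numbers, the correlation of the differences was -0.65, the same sign occurred in 28.1% and 1 gene was higher by more than 0.5 in both. At a level floor of 2 CPM 38 genes were higher and 50 lower by more than 0.5, the correlation was 0.22 and the same sign occurred in 58.8%; at 30 CPM 2 were lower, the correlation was 0.39 and the share 61.5%. With the GC and length trend removed 5 genes were higher and 2 lower, the correlation was 0.22 and the share 57.9%. In 7 lists it moved the median mean difference by more than the SD between the list's medians in the matched differences: to -0.01 for NRF2 targets and for base excision repair and joining, -0.06 for tRNA synthetases, 0.01 for complexes II to V, -0.04 for autophagy, -0.03 for ribosome biogenesis and 0.05 for zinc finger genes, the last 0.10 with upper-quartile scaling. Histone genes (-0.18 with the trend removed, -0.3 with it) and MHC genes (-0.02 and -0.08) also shifted, but by less than their own SD. The cause was not tested. The same sign occurred in 50.5% of genes under 2 CPM, and exact tests of 2 libraries against 2 cannot pass 0.05.

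Fold changes of 114 genes, most given above as CPM only, were followed across the alternatives, and 23 changed sign when a library was left out. PMAIP1, HSP90B1 and TFRC are named only here. Their log2 fold changes with each library left out ranged from -0.1 to 0.93 for IL6ST, -0.07 to 0.79 for ABCA5, -1.49 to 1.5 for ASB2, -1.28 to 1.42 for CHL1, -0.92 to 0.8 for GLDC, -1.22 to 1.72 for EGR3, -0.72 to 1.51 for SLC7A11, -0.25 to 0.52 for PMAIP1, -0.04 to 0.5 for ZMAT3, -0.27 to 0.73 for H2AFX, -0.02 to 0.25 for FANCD2, -0.54 to 0.01 for FARSB, -0.76 to 0.36 for HSPA5, -0.52 to 0.00 for HSP90B1, -0.07 to 0.63 for BIRC3, -0.24 to 0.35 for TFRC, -0.37 to 0.24 for IRF4, -0.12 to 0.32 for MS4A1, -0.19 to 0.21 for CDKN1A, -0.18 to 0.45 for MDM2, -0.66 to 0.88 for CKB, -1.17 to 0.9 for CTH and -0.42 to 0.53 for RFXANK. Under other alternatives 3 genes changed sign: CDKN1A (-0.01, upper-quartile scaling), CTH (-0.08, limma-voom) and RFXANK (0.02 with the same-number replicate block, 0.04 with limma-voom).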
